A study of Mus musculus with 8 samples.

Results

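The SLAM (signalling lymphocyte activation molecule) receptor genes of mouse chromosome 1 were followed through their CpG methylation in B and T cells. The 8 genes Ly9, Slamf7, Cd48, Slamf1, Cd84, Slamf6, Slamf9 and Slamf8 were taken by name, and every CpG in a gene body of the GENCODE M21 annotation or in the 10 kb on either side of it was used. They are 8 of 21755 protein-coding genes on the autosomes and the X chromosome. Their regions cover 355 kb of GRCm38 (mm10) and hold 3077 CG sites, of which 3011 were listed in at least 1 library and 2756 in all 4, against 18684786 CpGs listed in all 4 libraries across the genome.

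Whole-genome oxidative bisulfite sequencing (WGoxBS) was performed on lymphocytes from spleens of C57BL/6J mice aged 6 to 8 weeks. In this assay unmodified cytosine is read as T, and an oxidation step is meant to make 5-hydroxymethylcytosine read as T too, so that the C reads stand for 5-methylcytosine (5mC). The 4 groups were resting CD43- B cells of females, resting CD43- B cells of males, and naive CD4+ T cells (sorted as CD62Lhi, CD44lo and CD25-) of females and of males. The labels name no transgene and no treatment, and cells of several mice were pooled in each sample. The labels list 8 samples, 2 per group, with 1 deposited file for each group that may hold 1 or both of them, so 4 libraries were compared, n = 2 per cell type (1 per sex), and no value has a spread between replicates of the same sex.

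At the SLAM CpGs listed in all 4 libraries the median depth was 17 reads in the female B, female T and male T cell libraries and 14 in the male B cell library. As a check of the labels, the promoters of 6 of 6 T cell genes (Cd3d, Cd3e, Cd3g, Cd4, Cd5, Lck) were called higher in B cells, and those of 6 of 6 B cell genes (Ms4a1, Cd79a, Cd79b, Cd22, Blk, Fcrla) higher in T cells. The rule for a call is the one given below for tiles, and 1.37% of all 20501 promoters tested were called. Promoters of 4 monocyte and macrophage genes, 2 natural killer cell genes and 1 plasma cell gene gave 0 calls, which at that share shows little. Of these genes Lyz2 (-16.8 points for B minus T, adjusted p 0.000924, edgeR) and Itgam (13.05 points, adjusted p 0.00226) passed the adjusted p alone, as did 19.9% of all promoters. Cd8a and Cd8b1, genes of the CD8 T cells that the T cell sort depletes, were both called higher in B cells (mean levels of 85.4% and 90.1% in B cells, 56.7% and 29.5% in T cells). The mitochondrial genome, at which little 5mC is known, was methylated at 0.271% and 0.727% of reads in B cells of females and males and at 0.0733% and 0.0709% in female and male T cells, and its part in the differences below was not tested. A level in a bulk sample is the share of reads that were methylated, so an intermediate level in every cell and a mixture of cells with high and low levels cannot be told apart.

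SLAM receptors are members of the immunoglobulin superfamily on the surface of blood cells. Most of them bind the same receptor on a neighbouring cell, while CD48, held in the membrane by a lipid anchor, is the ligand of CD2 and CD244. The tails of SLAMF1, SLAMF6, CD84, LY9 and SLAMF7 carry tyrosine motifs that recruit the small adaptors SAP (from Sh2d1a) or EAT-2 (from Sh2d1b1), through which kinases such as FYN are engaged, and phosphatases where the adaptors are missing. In lymphocytes the family is known for T and B cell contacts in germinal centres, for natural killer T cell development and for natural killer cell recognition. SLAMF8 and SLAMF9 have short tails without those motifs and are best known from myeloid cells. Methylated CpGs at a promoter or enhancer usually go with a closed site, and low levels with an open one.

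Windows of 300 bases in Slamf6, Slamf1, Slamf7 and Cd84 are given first. Each had the largest mean B minus T difference over its CpGs, at least 4, of all such windows of its gene in a set direction. Single CpGs outside a window can differ more. The direction searched was higher in B cells for Slamf6 and Slamf1, higher in T cells for Cd84, and both for Slamf7. The other direction was not searched in Slamf6, Slamf1 and Cd84. The windows were chosen for their difference, with exons of untranslated sequence left out, so their levels are a description. Each is written 5′ to 3′ on the strand of its gene, from GRCm38, and capitals mark the CpGs.
Slamf6, lower in T cells: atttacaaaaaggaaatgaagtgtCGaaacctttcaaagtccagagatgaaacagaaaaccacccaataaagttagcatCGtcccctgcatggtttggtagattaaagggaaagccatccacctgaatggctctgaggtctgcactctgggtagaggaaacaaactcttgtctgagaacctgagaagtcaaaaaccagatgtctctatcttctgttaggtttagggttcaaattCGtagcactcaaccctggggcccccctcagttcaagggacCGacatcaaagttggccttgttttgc
Slamf1, lower in T cells: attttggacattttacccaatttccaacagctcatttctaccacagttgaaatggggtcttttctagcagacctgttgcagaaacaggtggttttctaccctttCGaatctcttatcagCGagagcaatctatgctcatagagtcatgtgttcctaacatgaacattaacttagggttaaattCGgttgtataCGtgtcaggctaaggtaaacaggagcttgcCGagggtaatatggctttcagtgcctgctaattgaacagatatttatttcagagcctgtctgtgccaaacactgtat
Slamf7, lower in B cells: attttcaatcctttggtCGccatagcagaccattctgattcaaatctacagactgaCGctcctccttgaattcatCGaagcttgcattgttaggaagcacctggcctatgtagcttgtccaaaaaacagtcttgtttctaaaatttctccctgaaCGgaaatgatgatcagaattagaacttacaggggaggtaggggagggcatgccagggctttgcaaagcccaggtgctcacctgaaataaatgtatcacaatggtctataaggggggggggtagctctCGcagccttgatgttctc
Slamf7, lower in T cells: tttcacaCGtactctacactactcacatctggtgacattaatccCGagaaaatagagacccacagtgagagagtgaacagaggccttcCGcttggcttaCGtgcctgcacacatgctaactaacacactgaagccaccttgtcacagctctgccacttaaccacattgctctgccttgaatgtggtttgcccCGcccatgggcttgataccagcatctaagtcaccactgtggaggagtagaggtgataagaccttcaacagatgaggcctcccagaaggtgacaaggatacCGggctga
Cd84, lower in B cells: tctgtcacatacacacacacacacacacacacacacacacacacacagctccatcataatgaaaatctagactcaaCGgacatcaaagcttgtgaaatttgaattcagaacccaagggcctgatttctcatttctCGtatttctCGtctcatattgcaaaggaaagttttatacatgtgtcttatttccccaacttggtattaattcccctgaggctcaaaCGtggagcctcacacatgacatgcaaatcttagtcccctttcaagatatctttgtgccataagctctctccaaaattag

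The Slamf6 window (chr1:171961641-171961940, plus strand) lies between genes, 44126 bases downstream of the gene start and beyond the gene end. Its 4 CpGs were methylated at 95.1% of 82 reads in female B cells and 95.9% of 49 reads in male B cells, against 1.20% of 83 reads in female T cells and 0 of 74 reads in male T cells (95% Wilson upper bound 4.93%). The Slamf1 window (chr1:171772213-171772512, plus strand) lies in an intron, and its 5 CpGs stood at 88.1% and 95.7% in B cells of females and males and at 0% and 2.25% in female and male T cells. In the plot of single CpGs the low stretch of T cells reaches beyond the window on the far side at Slamf6 and on both sides at Slamf1, where the 3 CpGs after the window stood at 0% to 13.04% in T cells.

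For Slamf7, the only gene searched both ways, the widest window in each direction was taken. The first (chr1:171647754-171648053, minus strand, intron) was methylated at 1.00% and 3.70% of reads in B cells of females and males, and at 85.9% and 77.8% in female and male T cells. The other (chr1:171643709-171644008, minus strand, intron) showed the opposite, with 74.5% and 71.9% in female and male B cells and 0.794% and 0.952% in female and male T cells. They lay 4982 to 5281 and 9027 to 9326 bases downstream of the annotated start. The Cd84 window (chr1:171848739-171849038, plus strand, intron) was methylated at 3.70% and 7.55% in B cells of females and males and at 79.2% and 78.2% in female and male T cells, on 53 to 55 reads per library. All 5 windows gave the same direction in females and males, and the levels of the B and T libraries did not overlap. Both follow largely from the choice of the windows on these same levels.

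**Figure D1:**
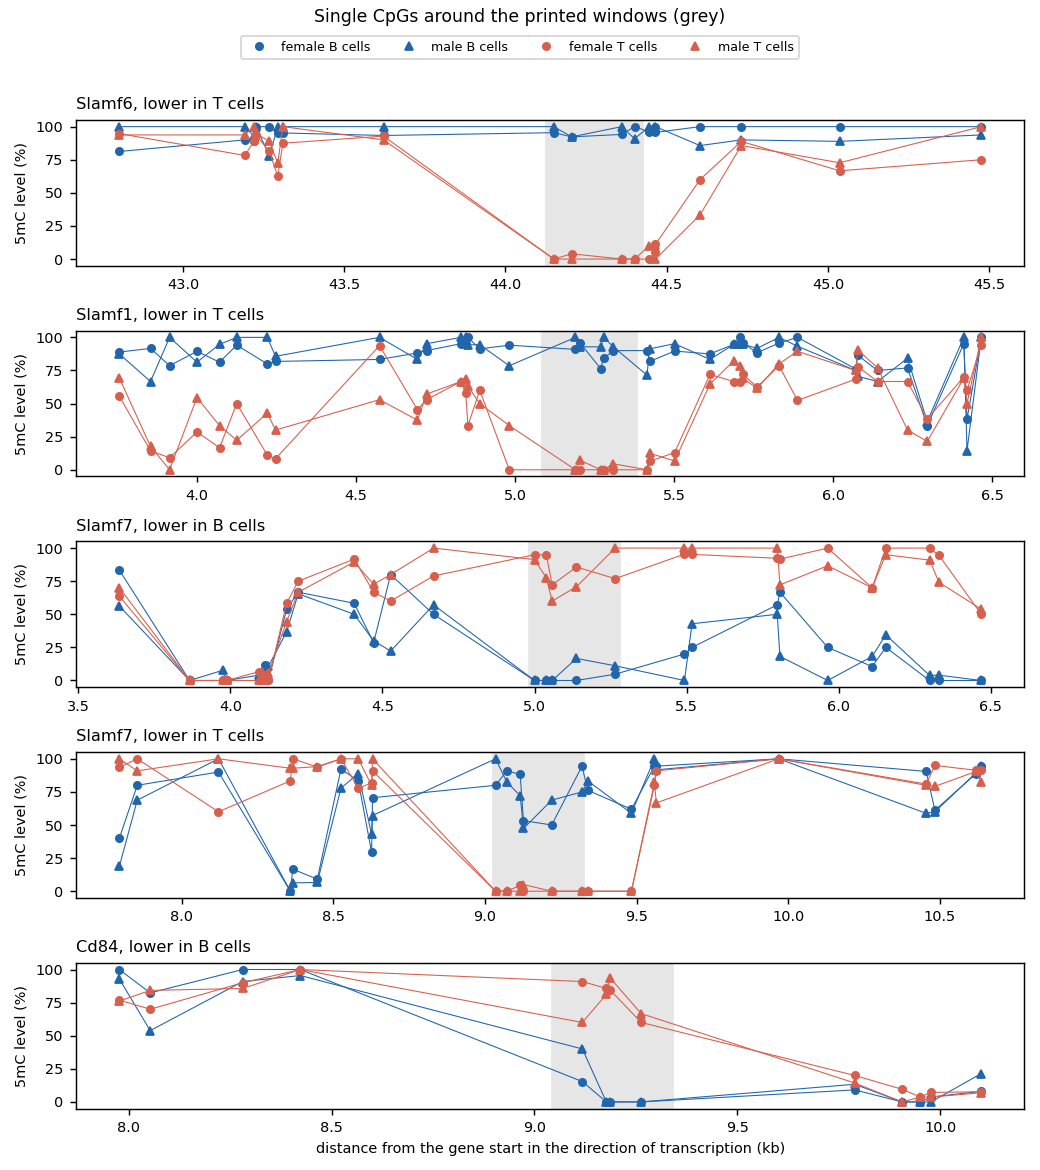
5mC level (%) of single CpGs around each of the 5 windows (grey), against distance from the gene start in kb; blue is B cells, red T cells, circles females and triangles males. In the Slamf6 window both T cell libraries lie at 4% or less while both B cell libraries exceed 90%, and the Slamf7 panels show the order of the cell types turned round.

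To profile the cluster, methylated and unmethylated reads were summed in tiles of 1000 bases and tested for B minus T cells with a term for sex. A tile was called at an adjusted p under 0.05 (edgeR) with a difference of at least 20 percentage points between the mean levels of the B and the T libraries. Of 252 tiles tested in the SLAM regions, 33 were called (13.1%), 25 higher in B cells and 8 higher in T cells. Of all 1530528 tiles tested on the autosomes and X, 3.17% were called, 2.36% higher in B cells and 0.812% higher in T cells. Tiles between and beside the SLAM regions, within the same 1022 kb of chromosome 1, were called in 21 of 597 cases (3.52%). The median difference was 2.71 points over the SLAM tiles and 0.788 points over all tiles. In all 33 called tiles both sexes gave the same sign and the 2 B cell levels did not overlap the 2 T cell levels. The tiles were called on these same levels, so this follows largely from the calling. Of the 25 tiles higher in B cells, 13 were intronic, 8 overlapped exons, 2 lay at promoters and 2 between genes, and the 8 higher in T cells held 4 intronic, 2 exonic, 1 promoter and 1 intergenic tile.

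The calls were unevenly spread over the genes. Slamf1 had 13 of 40 tiles called, Slamf7 7 of 38, Slamf6 7 of 40, Cd48 3 of 23 and Cd84 3 of 38, while Ly9 (28 tiles), Slamf9 (23) and Slamf8 (22) had 0. Among 16787 gene regions with at least 20 tested tiles the median share called was 2.33%, and 40.8% of them had no called tile. The share of Slamf1, 32.5%, was reached or exceeded by 1.01% of these gene regions, that of Slamf7 (18.4%) by 4.08%, that of Slamf6 (17.5%) by 4.59%, that of Cd48 (13.04%) by 8.35% and that of Cd84 (7.89%) by 18.4%.

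**Figure D2:**
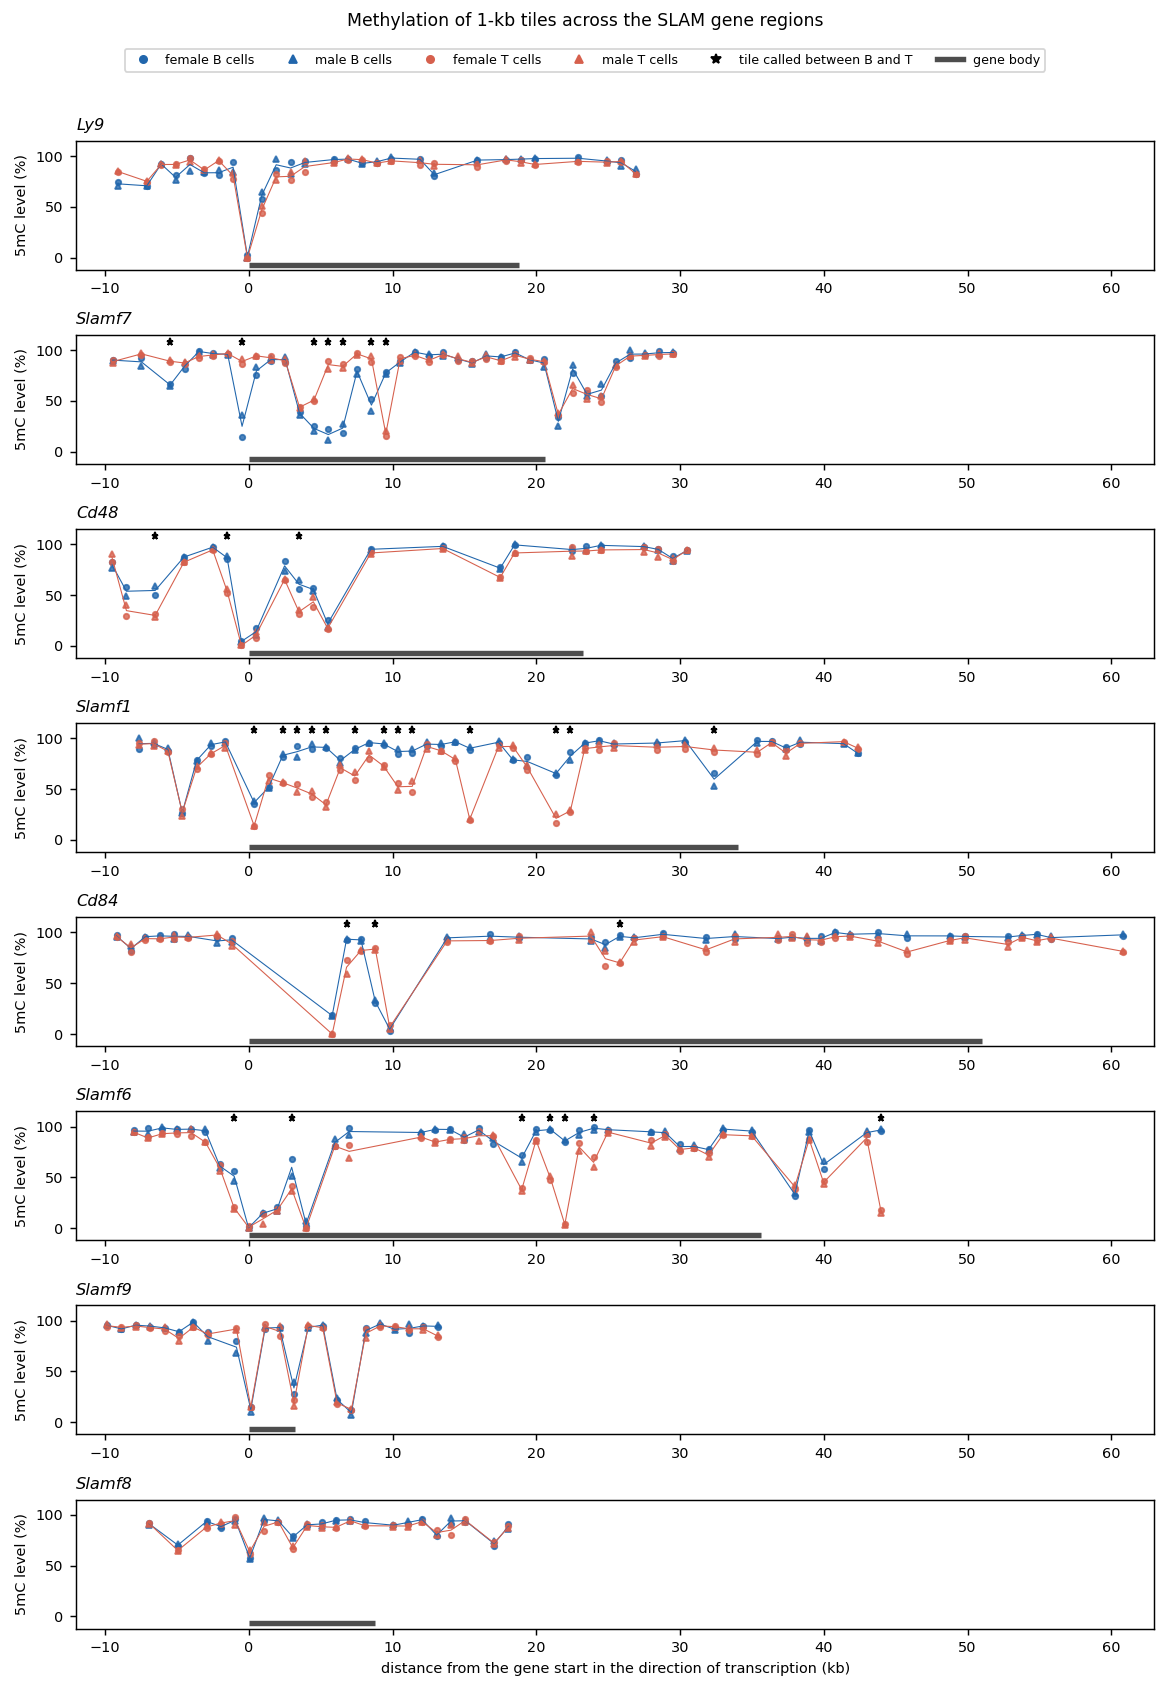
5mC level (%) of each tested tile of 1000 bases in the 8 SLAM gene regions, in their order along the chromosome, against distance from the gene start in kb in the direction of transcription; points are libraries, lines the mean of a cell type, grey bars gene bodies and stars the 33 called tiles. Slamf1 and Slamf6 have dips of the T cell line that the B cell line lacks, Slamf7 has dips that either line lacks, and Ly9, Slamf9 and Slamf8 have no starred tile.

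Ly9 (chr1:171588624-171607410, minus strand) encodes a receptor that binds itself across cells and is found on B and T cells. A stretch of 711 bases at its start was methylated at 5.22% of reads in female B cells and 0% in the other libraries. The promoter (1 kb on either side of the start) was methylated at 29.6% and 13.9% in female and male B cells and 8.64% and 10.7% in female and male T cells. The difference of 12.1 points passed the adjusted p alone (0.000805) and was not called, with 20.99 points in females and 3.18 points in males. It did not pass with limma (adjusted p 0.141), without the female B cell library (4.21 points, adjusted p 0.409), without any of the others (11.1 to 19.97 points, adjusted p 0.112 to 0.519) or with 500 bases on either side (1.16 points, adjusted p 0.153). No tile of Ly9 was called, the tile differences running from -12.7 to 14.2 points. Of 183 CpGs of Ly9 with at least 10 reads in every library, 3 (1.64%, against 0.94% of all such CpGs) differed by at least 50 points in both sexes. All 3 lay upstream and were higher in T cells, among them a CpG 5.22 kb before the start with 17.4% and 19.0% in female and male B cells against 93.9% and 95.7% in female and male T cells.

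Slamf7 (chr1:171632403-171653035, minus strand) encodes a receptor of natural killer cells, B cells and plasma cells that also binds itself. It was the gene with most tiles higher in T cells, 6 of the 8 of the whole cluster. The widest was an intronic tile at chr1:171647001-171648000, where 22.7% and 11.2% of reads were methylated in female and male B cells and 89.7% and 81.9% in female and male T cells, a difference of -68.9 points (adjusted p 1.64e-43). It formed a run with tiles on either side, -60.8 points at chr1:171646001-171647000 and -27.8 points at chr1:171648001-171649000, which holds untranslated and coding sequence of Slamf7. The tile at chr1:171643001-171644000 went the other way, with 78.5% and 76.9% in female and male B cells and 15.2% and 20.4% in female and male T cells, and the tile that follows it differed by -45.5 points. This was the only pair of adjoining called tiles with opposite signs among 10 adjoining pairs.

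At the annotated start of Slamf7 the tile chr1:171653001-171654000, which holds untranslated sequence, was methylated at 14.1% of 71 reads and 36.0% of 50 reads in B cells of females and males and at 86.8% and 90.9% in female and male T cells. The promoter around this start was called higher in T cells, with 53.6% and 69.2% in female and male B cells, 92.1% and 93.3% in female and male T cells, and a difference of -31.3 points (adjusted p 1.93e-19). RefSeq places the start of the gene 4036 bases further downstream, at an exon where 321 bases were low in both cell types, at 7.58% and 10.0% in female and male B cells and 7.92% and 8.47% in female and male T cells. Around the RefSeq start the difference was -21.7 points (adjusted p 4.63e-06), from 29.7% and 24.6% in female and male B cells and 48.2% and 49.4% in female and male T cells. With CpGs of at least 10 reads in every library, the promoter at the annotated start differed by -12.2 points and was not called, and with 500 bases on either side it differed by -49.7 points (adjusted p 5.81e-18). Without the female T or the male T cell library it differed by -31.9 and -30.6 points and did not pass (adjusted p 0.173 and 0.182).

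Cd48 (chr1:171682009-171705258, plus strand) encodes the anchored ligand of CD244 and CD2, present on nearly all blood cells. Its start lay in a stretch of 1846 bases low in both cell types, at 6.50% and 3.60% in female and male B cells and 1.33% and 1.496% in female and male T cells. The promoter stood at 14.1% and 8.25% in female and male B cells and 6.37% and 9.01% in female and male T cells. Its difference of 3.49 points (7.74 in females and -0.764 in males) did not pass (adjusted p 0.124), and it was 0.558 points without the female B cell library and 6.42 points without the male B cell library. Around the RefSeq start 3.95 points passed (adjusted p 0.0193), with 7.23 points in females and 0.657 in males. The 3 called tiles were all higher in B cells. The widest, at chr1:171680001-171681000, which overlaps an exon of the neighbouring gene A630035G10Rik, was methylated at 85.5% and 88.0% in female and male B cells and 52.0% and 56.0% in female and male T cells (32.8 points, adjusted p 4.63e-14). The others lay 6.51 kb before the start (24.6 points) and 3.49 kb inside the gene (27.1 points), and limma called neither (adjusted p 0.103 and 0.0666). The tile before the start averaged CpGs of opposite direction. The CpG at 171675153 was methylated at 83.3% and 90.5% in female and male B cells and 13.04% and 20% in female and male T cells, and the CpG at 171675890 at 10.5% and 0% in female and male B cells and 88.9% and 75.0% in female and male T cells. With CpGs of at least 10 reads in every library this tile differed by 9.96 points, and without the male B cell library by 20.04 points (adjusted p 0.0630), and it was called in neither case.

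Slamf1 (chr1:171767127-171801184, plus strand), which encodes the family's founding receptor CD150, had the most called tiles. Of its 13, 12 were higher in B cells. They began at the start of the gene, where 35.6% and 38.0% of reads in female and male B cells and 14.2% and 13.8% in female and male T cells were methylated in a tile holding untranslated and coding sequence. A run of 4 adjoining tiles followed at chr1:171769001-171773000, with differences of 27.0, 35.9, 46.3 and 56.5 points in the order of transcription. The widest tile was intronic, at chr1:171782001-171783000, with 88.5% and 92.0% in female and male B cells and 19.6% and 21.1% in female and male T cells (69.9 points, adjusted p 3.24e-42). The exception, higher in T cells, was the tile at chr1:171799001-171800000, which overlaps coding and untranslated sequence near the gene end, with 66.3% and 53.4% in female and male B cells and 86.4% and 90.7% in female and male T cells (-28.7 points, adjusted p 6.51e-06). The promoter was called higher in B cells, at 48.6% and 46.4% in female and male B cells and 19.3% and 20.6% in female and male T cells (27.6 points, adjusted p 7.14e-12). The 429 bases around the start itself were low in every library, at 6.92% and 2.75% in female and male B cells and 0% in both T cell libraries, and the low stretch of T cells was wider, 1111 bases. Taken as 500 bases on either side of the start, the promoter differed by 16.4 points and was not called. Without the female T, male B or male T cell library it differed by 26.9, 28.7 and 28.2 points and did not pass (adjusted p 0.159, 0.0891 and 0.124).

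Cd84 (chr1:171839697-171890718, plus strand) encodes a receptor that binds itself and takes part in T and B cell contacts. Its promoter held only 5 CpGs listed in all 4 libraries and did not pass (-2.42 points, adjusted p 0.785). The sexes went opposite ways, with -9.10 points in females and 4.27 points in males, and without the female B cell library the difference was 2.43 points. A tile at chr1:171848001-171849000 was higher in T cells, at 30.7% and 33.3% in female and male B cells and 84.3% and 83.1% in female and male T cells (-51.7 points, adjusted p 2.04e-12). The called tiles at chr1:171846001-171847000 (27.5 points) and chr1:171865001-171866000 (26.1 points) were higher in B cells. All 3 were intronic. T cells also had a low stretch of 891 bases, 3.92 kb to 4.81 kb inside the gene, where 69.6% and 74.2% of reads in female and male B cells and 6.94% and 3.23% in female and male T cells were methylated.

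Slamf6 (chr1:171917515-171953170, plus strand) encodes Ly108, a self-binding receptor of T, B and natural killer cells. All 7 of its called tiles were higher in B cells. The tile at chr1:171939001-171940000, which overlaps coding sequence, showed the widest difference of the cluster, with 85.1% of 202 reads and 86.5% of 156 reads in female and male B cells and 4.35% of 184 reads and 3.14% of 223 reads in female and male T cells (82.1 points, adjusted p 6.75e-82). The tile before it, which also overlaps coding sequence, differed by 48.0 points, from 96.7% and 97.6% in female and male B cells and 47.1% and 51.1% in female and male T cells. Beyond the gene end, the tile at chr1:171961001-171962000 differed by 80.4 points (adjusted p 2.24e-59). The start of Slamf6 lay in a low stretch in both cell types, of 3927 bases in T cells and of 1547 bases in B cells, where another of 943 bases followed directly. The promoter stood at 8.65% and 8.41% in female and male B cells and 5.00% and 1.74% in female and male T cells. The difference of 5.16 points passed the adjusted p (9.64e-05) and not the 20 points, and did not pass with limma (adjusted p 0.0780) or with any 1 library left out (3.53 to 6.79 points, adjusted p 0.124 to 0.360). With 500 bases on either side it was -0.585 points (adjusted p 0.457). The called tile upstream of the start, at chr1:171916001-171917000, had 55.8% and 46.5% in female and male B cells and 20.9% and 18.9% in female and male T cells. The call of the tile at chr1:171920001-171921000 (21.3 points) was lost with limma (adjusted p 0.169), without the female B cell library (12.7 points, adjusted p 0.528) and without the female T or the male T cell library (adjusted p 0.0681 and 0.175).

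Slamf9 (chr1:172475358-172478575, plus strand) and Slamf8 (chr1:172581758-172590568, minus strand), the receptors best known from myeloid cells, lie apart from the other 6 genes and had no called tile. The tile before the Slamf9 start, at chr1:172474001-172475000, came nearest to the threshold, with 79.9% and 67.9% in female and male B cells and 92.4% and 91.1% in female and male T cells (-17.9 points). Of 248 CpGs of Slamf9 with at least 10 reads in every library, 3 (1.21%, against 0.94% of all such CpGs) differed by at least 50 points in both sexes. They were higher in T cells and lay before the start, the CpG at 172473374 being at 0% in both B cell libraries and at 95.5% and 85.7% in female and male T cells. The promoter of Slamf8 was highly methylated in all libraries, at 73.7% and 72.9% in female and male B cells and 74.8% and 78.0% in female and male T cells. The promoter of Slamf9 stood at 58.1% and 54.1% in B cells of females and males and at 61.8% and 66.8% in female and male T cells. Neither promoter passed (adjusted p 0.539 for Slamf8 and 0.109 for Slamf9), and 0 of 233 CpGs of Slamf8 with at least 10 reads in every library differed by 50 points.

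Seen by promoter, 2 of 8 SLAM genes were called, Slamf1 and Slamf7, in opposite directions, where 1.37% of all 20501 promoters tested were called. By the adjusted p alone 4 of 8 passed (Slamf1, Slamf6, Slamf7 and Ly9), against 19.9% of all promoters, and with limma 2 of 8 (Slamf1 and Slamf7), against 7.23%. The median difference of the 8 promoters was 0.537 points and that of all promoters 0.970 points. Averaged over the whole gene body with its flanks, 0 of 8 SLAM regions were called, against 0.43% of all gene regions, and 5 of 8 passed the adjusted p alone, against 39.8%. These were Slamf6 (13.4 points), Slamf1 (13.3), Cd48 (6.20) and Cd84 (5.50), higher in B cells, and Slamf7 (-5.10), higher in T cells. Ly9 (1.17 points), Slamf8 (1.49) and Slamf9 (-0.0162) did not pass. Slamf7 did not pass without the female T or the male T cell library (adjusted p 0.0533 and 0.0505), nor Cd48 without the female T cell library (4.72 points, adjusted p 0.178). Over gene bodies without flanks 7 of 8 passed, Slamf9 being the exception, against 31.1% of all gene bodies.

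**Figure D3:**
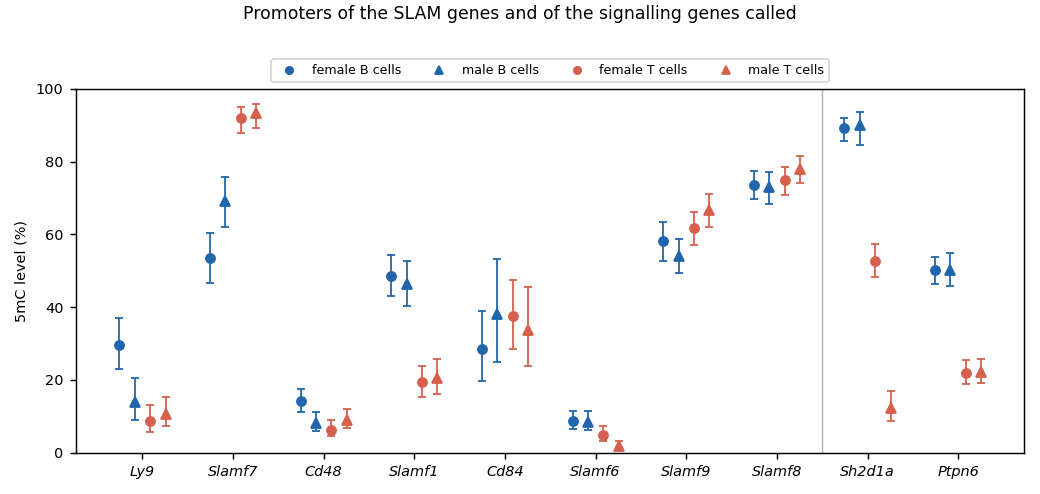
5mC level (%) of the promoters of the 8 SLAM genes in chromosome order and, right of the line, of the called signalling genes Sh2d1a and Ptpn6; each point is 1 library with its 95% Wilson interval. The libraries of B and T cells stand apart at Slamf7 and Slamf1, and the female and male T cell libraries stand apart at Sh2d1a, at 52.8% and 12.3%.

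Low-methylated segments, runs of at least 4 CpGs each at 50% or less on average in a cell type, were compared between the cell types. T cells had 35 such segments covering 26804 bases of the SLAM regions and B cells 23 covering 15484 bases. Of these, 18 in T cells (51.4%) and 5 in B cells (21.7%) had no overlapping segment in the other cell type, against 27.7% of all 85537 T cell segments and 19% of all 76978 B cell segments on the autosomes and X. With a limit of 30% in place of 50%, T cells had 25 segments covering 16631 bases and B cells 21 covering 11049 bases. Of these, 10 in T cells (40%, against 26.4% of all segments at that limit) and 3 in B cells (14.3%, against 18.8%) had no counterpart. With at least 8 CpGs there were none for 10 of 15 T cell segments (66.7%, against 20.6%) and 4 of 10 B cell segments (40%, against 12.9%), and with at least 10 reads per CpG for 17 of 28 (60.7%, against 24.4%) and 1 of 12 (8.33%, against 17.4%). The share of T cell segments thus exceeded that of all segments under these 4 settings, and the share of B cell segments lay above it under 2 and below it under 2. The segments at the starts of Ly9, Cd48, Slamf1 and Slamf6 and just before that of Slamf9 overlapped between the cell types. The B cell segment at the Cd84 start was low in both cell types, at 3.41% and 8.51% in female and male B cells and 10.0% and 8.99% in female and male T cells, although the T cell segment that overlapped it began only 886 bases inside the gene. All 5 segments that only B cells had lay in the Slamf7 region, where T cells had 2 of their own, and in 2 of the 5 the mean level of T cells was also under 50%, at 27.2% in B and 30.6% in T cells downstream of the gene and at 27.1% in B and 47.8% in T cells upstream of it. The T cell segments without a B cell counterpart lay in Slamf1 (7), Slamf6 (5), Cd48 (3), Slamf7 (2) and Cd84 (1). In 3 of these 18 the mean level of B cells was under 50% too, with 25.7% in B and 17.8% in T cells at Slamf7, 35.4% and 18.1% at Slamf6, and 43.4% and 21.02% at Slamf1. The widest in level was the Slamf6 segment of 455 bases around the printed window, at 96.3% in both B cell libraries and at 6.80% and 5.56% in female and male T cells. An intronic Slamf1 segment of 522 bases stood at 88.4% and 89.9% in B cells of females and males and at 3.48% and 6.54% in female and male T cells. These segments were defined on the levels they are described by, and no test was made of them.

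**Figure D4:**
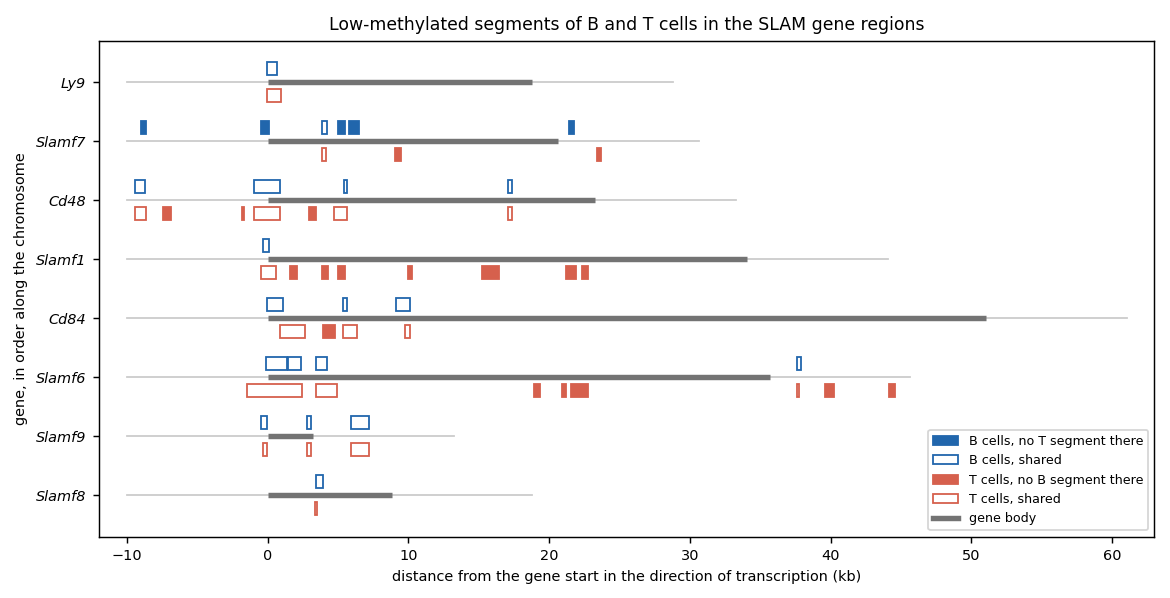
Low-methylated segments in the 8 SLAM gene regions against distance from the gene start in kb, B cells above and T cells below each gene line; filled boxes have no overlapping segment in the other cell type, thick bars are gene bodies and thin lines the 10 kb flanks. Filled boxes of B cells occur at Slamf7 alone (5), and filled boxes of T cells at Slamf1 (7), Slamf6 (5), Cd48 (3), Slamf7 (2) and Cd84 (1).

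At single CpGs with at least 10 reads in every library, 96 of 1930 in the SLAM regions (4.97%) differed by at least 50 points with the same sign in females and males, against 0.94% of 12643841 CpGs on the autosomes and X. Of the 96, 64 were higher in B cells and 32 in T cells. The 118830 such CpGs on the autosomes and X leaned to B cells in much the same way, with 82505 higher in B cells and 36325 in T cells. Slamf1 had 32 of 274 (28 higher in B cells), Slamf7 21 of 268 (16 higher in T cells), Slamf6 16 of 262 (all higher in B cells), Cd84 12 of 262 (9 higher in B cells) and Cd48 9 of 200 (6 higher in B cells). Ly9 and Slamf9 had 3 each, all higher in T cells. No test was made per CpG.

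No tile of these genes was called between females and males, and few of all tiles were. With 1 library per sex in each cell type, the lack of calls shows little. Over the 252 tiles the median gap between the female and the male library was 2.31 points for B and 2.37 points for T cells, below the median B minus T difference of 4.08 points in size. The widest gap was 21.9 points, in B cells at the tile of the Slamf7 start. For female minus male, 0 of 252 tiles were called by edgeR and 0 by limma, where edgeR called 0.0865% of all tiles. By edgeR 14 had an unadjusted p under 0.05, against 78495 of all 1530528 tiles, and the lowest adjusted p was 0.540. The B minus T difference was called different between the sexes in 0 of 252 tiles by edgeR and 0 by limma. Of all tiles edgeR called 0.000849%. By edgeR 16 had an unadjusted p under 0.05, against 66775 of all 1530528 tiles, and the lowest adjusted p was 0.995.

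Of 16 promoters of SLAM signalling genes, which are the receptor gene Cd244a and genes of adaptors, kinases, phosphatases and other proteins that act downstream of the receptors, 2 were called, against 1.37% of all promoters, and 7 passed the adjusted p alone, against 19.9% (6 with limma, against 7.23%). Both called were higher in B cells. Sh2d1a, on the X chromosome, encodes SAP, the adaptor that binds the SLAM tails. Its promoter (chrX:42501453-42503453) was methylated at 89.2% and 89.9% in female and male B cells, 52.8% in female T cells and 12.3% in male T cells. The B minus T difference was 57.1 points (adjusted p 3.69e-50, edgeR), with 36.4 points in females and 77.7 in males. The sex term over both cell types also passed (adjusted p 2.03e-08, edgeR). By level the sexes stood apart in T cells alone, on 1 library per sex. The difference of B minus T between the sexes did not pass at this promoter (unadjusted p 0.0969, edgeR). Of all 20501 promoters 678 passed for sex and 408 were called, all higher in females. Ptpn6 encodes SHP-1, a phosphatase recruited to tyrosine motifs. Its promoter (chr6:124737714-124739714) stood at 50.1% and 50.3% in B cells of females and males and at 21.96% and 22.2% in female and male T cells (28.1 points, adjusted p 6.14e-14) and differed by 8.66 points with 500 bases on either side of the start. Leaving out 1 library, Sh2d1a did not pass without the female B, male B or male T cell library (57.4, 56.7 and 36.8 points, adjusted p 0.134, 0.228 and 0.0633), and Ptpn6 did not pass without the female T, male B or male T cell library (28.0, 28.1 and 28.3 points, adjusted p 0.143, 0.0809 and 0.126). Promoters of the adaptor genes Sh2d1b1 and Sh2d1b2 and of Cd244a, a SLAM receptor gene beside Ly9, differed by -1.61, 1.78 and -0.423 points, and none of these passed. The median difference over the 16 was 0.979 points.

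Short motifs of lymphocyte transcription factors were searched on both strands of the tiles, each independently of the others. The TCF/LEF string TCAAAG occurred in 20 (80%) of the 25 SLAM tiles higher in B cells and 6 (75%) of the 8 higher in T cells, against 53.8% of all tiles, 60.7% of all tiles called higher in B cells and 51.6% of those called higher in T cells. The RUNX string TGTGGT occurred in 15 (60%) and 5 (62.5%) of them, against 54.4%, 65.7% and 58.6% in the same order. The ETS string GGAAGT occurred in 13 (52%) and 2 (25%), against 46.3%, 51.0% and 55.3%. The EBF string CCCNNGGG occurred in 7 (28%) and 3 (37.5%), against 18.2%, 18.3% and 37.0%. Of the 219 SLAM tiles not called, 58.9% held the TCF/LEF, 56.6% the RUNX, 55.3% the ETS and 16.0% the EBF string. A match is a string of letters and no evidence of a bound factor.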

How the data were processed

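The 8 samples of 4 groups (2 per group) are represented by 1 deposited file per group, and each of the 4 files was 1 library. The authors deposited, for every CpG covered by at least 5 reads, a methylation level as a fraction rounded up to 3 decimals and a raw count of reads, with both strands of a CpG joined. The submitters' processing notes list Trim Galore, FastQC, Bismark 0.13.1 and mm10. Whether duplicate reads were removed, and whether a file joins both samples of its group, is not given in the sources used here. Methylated reads were recovered from level and count, and 100% of the levels came out as whole reads once rounded up. All listed positions on the autosomes and X lay on a CG of GRCm38. The libraries held 280919817 to 354634149 reads at CpGs. The number of unused per-sample columns was 0.

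For CpGs with a value in all 4 libraries, reads were added up in tiles of 1000 bases (a tile belongs to the gene region that holds its centre), promoters (1000 bases on either side of the gene start) and gene bodies with 10 kb flanks. Regions with at least 5 CpGs and 20 reads in every library were tested with edgeR 4.0.16 (quasi-likelihood test, R 4.3.3), with a term per library, methylation, and cell type and sex on methylation, and with Benjamini-Hochberg adjustment over all regions of a kind. A common dispersion was estimated (on 20000 tiles: 0.00762), and the spread of tiles and promoters was shrunk fully to the trend, so each region was judged by a spread shared by all. For a single value, the exact permutation test of 2 libraries against 2 cannot give a two-sided p below 0.333. The difference between the sexes in B minus T was fitted in place of the sex term. The code was tested on simulated data. Wilson intervals (95%) cover counting error only, since reads carry no molecular identifiers.

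The genes, gene lists, motifs and settings were chosen with earlier results of these data known. The text names the 8 genes, their promoters and their called tile with the widest difference, other called tiles and differing CpGs as examples chosen after their values were seen, and the called promoters of the signalling list. That list holds Sh2d1a, Sh2d1b1, Sh2d1b2, Cd244a, Fyn, Lyn, Csk, Inpp5d, Ptpn6, Ptpn11, Plcg1, Plcg2, Vav1, Prkcq, Bcl10 and Nfkb1. Alternatives were limma 3.58.1, other filters, tile and promoter sizes, no minimum difference, leaving out each library and, added after the data were seen, RefSeq gene starts (7 of the 8 genes matched).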

Additional observations from a re-analysis of the deposited data

How the results depend on the processing

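Pairing by animal pool was not possible because the groups share no replicate numbers in the labels, and sex entered the main fit as a term. Of the 33 called SLAM tiles, 30 were still called with limma, 21 of the 22 that could be tested with at least 10 reads per CpG, all 33 with CpGs listed in any library and all 33 with at least 3 CpGs and 10 reads, and none turned in direction under these settings. The count of called tiles was 73 of 252 without a minimum difference (29.0%, against 9.32% of all tiles), 7 of 72 in tiles of 5000 bases (9.72%, against 1.25%), and 33 to 36 with 1 library left out (13.1% to 14.3%, against 3.21% to 3.22%). The main fit and the fits with 1 library left out each leave 1 residual degree of freedom. With a library left out there is no sex term, and the lone library is taken to vary like the others. The common dispersion of promoters was 0.0107 in the main fit and 0.0388 to 0.0437 with 1 library left out. The spread of promoters was shrunk fully in the main fit and only in part with 1 library left out (prior degrees of freedom, the weight of the shared spread, 3.79 to 3.99). A promoter can thus fail to pass there with its difference unchanged. Called SLAM promoters numbered 4 without a minimum difference (2 with limma), 1 of 6 with at least 10 reads per CpG (1.41% of all promoters), 1 of 7 with 500 bases on either side of the start (1.53%), and 0 to 2 with 1 library left out, where the share of all promoters fell from 1.37% to between 0.171% and 0.819%. Called signalling promoters numbered 7 without a minimum difference, 1 of 15 with at least 10 reads per CpG, 1 of 14 with RefSeq starts (1.58% of all promoters), and 0 to 1 with 1 library left out, and Fyn was called with 500 bases on either side (23.8 points). Gene regions called rose from 0 to 5 of 8 without a minimum difference, against 39.8% of all gene regions. Without that minimum 19.9% of all promoters passed with edgeR and 7.23% with limma. Low-methylated segments with at least 8 CpGs numbered 10 for B and 15 for T cells, and B cells had 12 with at least 10 reads per CpG. Segments with none overlapping in the other cell type numbered 10 of 15 in T cells with at least 8 CpGs (66.7%, against 51.4% before) and 10 of 25 with a limit of 30% (40%), and in B cells 3 of 21 with that limit (14.3%, against 21.7% before) and 1 of 12 with at least 10 reads per CpG (8.33%). CpGs differing by at least 30 points numbered 151 of 1930 (7.82%, against 2.00% of all CpGs). Counts without a minimum difference or with longer tiles, and those with fewer CpGs, follow from what is counted, and for the other changes the cause was not tested. Depth limits single CpGs, which rest on a median of 14 to 17 reads per library, and CpGs under 5 reads are not listed.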
